A study of Mus musculus with 3 samples.

Results

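The circadian clock genes described here were Arntl, Clock, Npas2, Per1, Per2, Per3, Cry1, Cry2, Nr1d1 and Dbp, 10 of the 19752 genes that could be named on the arrays. They were chosen as core genes of the mouse clock and its best-known direct outputs, and each was found through the RefSeq transcript of its probe. Dbp had 2 probes, and each of the other 9 genes had 1. Messenger RNA was measured on Agilent one-color arrays in skin-resident macrophages, sorted by flow cytometry from mouse backskin as CD11b+Gr1-F4/80+ cells. The skin was taken at postnatal days 42, 55 and 69, which the study places in early, mid and late telogen, the resting phase of the hair cycle. The study's text places early telogen at day 44, whereas the sample labels give day 42.

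All groups were untreated wild-type mice of the outbred CD1 background, with no allele or agent that differed between them, and the study's methods describe female animals. Each age was represented by 1 array, which carried RNA pooled from 3 littermates and amplified as a whole transcriptome. There were no replicates, so no test between ages was possible, and differences are given as sizes. The time of day at which the mice were killed is not given in the sources used here. With 1 pool per age, age and time of harvest cannot be told apart.

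The clock is a feedback loop of transcription. The activators BMAL1, the product of Arntl, and CLOCK or its relative NPAS2 bind E-box sequences and switch on the Per and Cry genes, whose proteins return to the nucleus and repress the activators. The same activators drive Nr1d1, which encodes the repressor REV-ERBα of Arntl, and Dbp, an output transcription factor that acts through D-box sequences. In most peripheral tissues, and in macrophages, transcripts of Arntl and of Dbp, Nr1d1 and Per3 cycle over the day in opposite phases.

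Promoter windows from RefSeq (GRCm38.p6), reaching from 250 bases before to 50 bases after a start site, were held for 9 of the 10 genes, and Per2 had no entry. The E-box CACGTG reads the same on both strands and was found in the windows of Per1 and Cry1, against 7.15% of 32851 mouse promoter windows. The related E′-box, CACGTT (searched on both strands, and so also read in the reverse direction as AACGTG), stood in the windows of Cry1, Cry2 and Nr1d1, against 4.685% of all windows. The D-box TTATGTAA (both strands) occurred at 2 places in the Per3 window and in 0.9376% of windows. The binding sequence of the ROR and REV-ERB receptors, TAGGTCA, also searched on both strands, occurred at 1 of 2 Arntl starts and in 2.606% of windows. None of these letters stood in the windows of Clock, Npas2 and Dbp. The motifs do not overlap one another, and a match is a description of the sequence, not a site of binding.

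The stretches that hold these matches are shown because the loop is known to act through motifs of these kinds. Whether these copies are bound was not tested. The arms compared further on were set by known regulation and not by these matches: of the E-box arm, Per1 and Nr1d1 hold an E-box or E′-box here, Per3 holds D-boxes only, and Dbp holds none. Each is written 5′ to 3′ on the strand of its gene, with the motif in capitals. They lie at chr11:69098743-69098828 (plus strand, Per1), chr10:85185069-85185154 (minus, Cry1), chr2:92434190-92434275 (minus, Cry2), chr11:98775378-98775445 (minus, Nr1d1), chr4:151044776-151044910 (minus, Per3) and chr7:113207530-113207559 (plus, Arntl, just inside the transcript).
Per1: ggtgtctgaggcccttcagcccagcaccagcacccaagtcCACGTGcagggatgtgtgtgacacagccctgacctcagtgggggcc
Cry1: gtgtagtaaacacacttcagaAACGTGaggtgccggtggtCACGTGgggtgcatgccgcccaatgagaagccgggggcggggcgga
Cry2: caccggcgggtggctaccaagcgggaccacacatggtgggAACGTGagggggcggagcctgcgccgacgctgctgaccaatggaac
Nr1d1: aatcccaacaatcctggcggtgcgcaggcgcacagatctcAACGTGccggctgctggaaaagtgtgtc
Per3: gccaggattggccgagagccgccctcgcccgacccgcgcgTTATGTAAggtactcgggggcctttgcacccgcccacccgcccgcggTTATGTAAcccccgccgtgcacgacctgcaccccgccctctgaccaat
Arntl: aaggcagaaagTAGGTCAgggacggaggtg

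Values are log2 levels of the processed signal relative to the 75th percentile of the same array, so that 0 is the signal of a probe at that percentile. A probe was counted as measured on an array when the scanner software called its spot well above background. Where a gene was measured on 1 of 2 arrays only, the difference is a lower bound, computed against the lowest measured signal of the other array. A bound was kept only where the array with the measurement was the higher one, so its direction was fixed by this rule. Levels of different probes were not set against each other. Between 59.6% and 71.4% of probes were measured per array, and no spot was saturated. Probes with 10 or more spots left after outlier spots were dropped had an SD of 0.12 to 0.14 over their spots (log2, medians over 213 to 289 probes). Each clock gene probe had 1 spot per array. This gives an SD for a difference between arrays of 0.17 to 0.19 over all such probes. It was 0.27 to 0.31 for dim probes and 0.12 to 0.13 for bright ones. These SDs hold only the error within an array, and not that between mice.

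One doubt on the array labels bears on every comparison. The log2 table of the series follows the scanner signals nearly exactly when its P55 and P69 columns are exchanged (residual SD 0.0044 and 0.0057), and poorly as labelled (r = 0.73 across probes). The arrays are therefore called by their deposited label, and no order of ages is read from the 2 later ones. In bulk RNA of a sorted population, fewer cells of a type and less RNA per cell cannot be told apart.

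The sorted cells carried the transcripts of macrophages on each array. All 15 macrophage markers that had a probe, of 16, were measured on all 3 arrays, and their summed level relative to the 75th percentile was 892 at P42, 894 at P55 and 565 at P69. Much of that sum came from Itgam, the brightest marker (level 8.95, 8.73 and 7.85), and the median difference of the 15 genes was -0.23 from P42 to P55, -0.29 from P42 to P69 and 0.00 from P55 to P69. Keratinocyte transcripts moved between the arrays. All 15 keratinocyte markers were measured on each array, and their median difference was 3.29 (log2) from P42 to P55 and 2.88 from P42 to P69, against -0.28 from P55 to P69. The level of Krt5, a keratin of basal keratinocytes, was 1.58 at P42, 5.55 at P55 and 4.91 at P69. The summed keratinocyte level was 284, 424 and 280. Most of it came from the brightest marker on each array (level 8.03, 8.04 and 7.35), so the sum mainly follows that marker. The part of keratinocyte RNA in the clock gene values was not tested.

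Of the 10 clock genes, 7 were measured on all 3 arrays, namely Clock, Per1, Per2, Per3, Cry2, Nr1d1 and Dbp. Arntl and Npas2 were measured at P55 and P69 but not at P42, and Cry1 at P69 only. P42, on which Arntl, Npas2 and Cry1 were not measured, had the largest share of probes above background (71.4%). Its lowest measured level was -4.44, against -4.04 at P55 and -5.01 at P69. The level of Npas2 at P69 (-4.62) lay below the lowest measured level of P42. Why these genes were not measured at P42 was not tested.

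**Figure D1:**
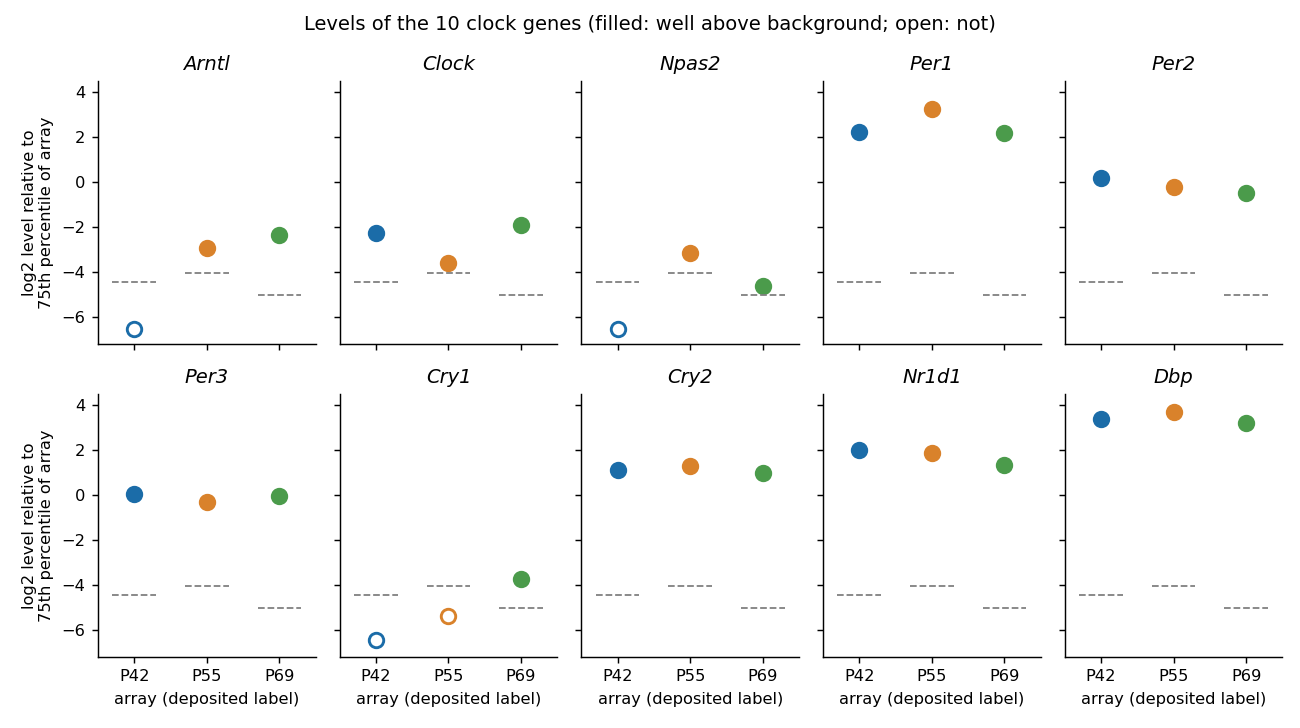
Level of each clock gene on the P42, P55 and P69 arrays, as log2 of the signal relative to the 75th percentile of that array (vertical axis), by its brightest probe. Filled circles were well above background, open circles were not, and dashed lines mark the lowest measured level of each array. Arntl and Npas2 are open at P42 and Cry1 at P42 and P55, while Per2, Per3, Cry2 and Nr1d1 span less than 1 on this scale.

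Among the activators, Arntl, whose product BMAL1 is the indispensable partner in the loop, had a level of -6.55 at P42, where it was not well above background, -2.92 at P55 and -2.37 at P69. Its signal was 2.18 times the lowest measured signal of the array at P55 and 6.23 times at P69. Arntl was thus at least 2.88-fold higher at P55 than at P42 (log2 1.53) and at least 4.20-fold higher at P69 (log2 2.07). P55 and P69 differed by 0.54 (1.46-fold). Under the other ways of processing, the lowest difference to P42 was 0.77 for P55 and 0.83 for P69. Both came from the normexp background correction and were less than 2-fold. The direction of a bound was fixed by the rule for bounds and carries no weight.

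Clock, the partner of BMAL1, was measured on all 3 arrays, at -2.29 (P42), -3.62 (P55) and -1.92 (P69). It was 2.53-fold lower at P55 than at P42, and 3.26-fold higher at P69 than at P55. Its signal at P55 was only 1.34 times the lowest measured signal of that array, so the low value lies near the limit of measurement. P42 and P69 differed by 0.37, little more than the SD of dim spots (0.27).

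Npas2, which can stand in for CLOCK, had a level of -6.54 at P42, not well above background, -3.17 at P55 and -4.62 at P69. It was at least 2.42-fold higher at P55 than at P42 and 2.74-fold higher at P55 than at P69. No difference between P69 and P42 could be given, since the P69 signal was only 1.31 times the lowest measured one. The activators therefore did not share 1 order of the arrays: Arntl and Clock were highest at P69 and Npas2 at P55.

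The period genes encode the repressor partners of the cryptochromes, and Per1 also responds directly to glucocorticoids and to cAMP. The level of Per1 was 2.23 at P42, 3.27 at P55 and 2.20 at P69. The P55 array was the highest, 2.05-fold above P42 and 2.10-fold above P69, while P42 and P69 differed by 0.04 in level. These sizes depended on the scaling. P55 against P42 ran from 0.52 (quantile normalization) to 1.59 (median scaling), and P69 against P55 from -1.11 (median scaling) to -0.17 (no scaling). With P55 and P69 exchanged, the high array is P69.

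Per2, the period gene needed for a stable rhythm, was at 0.20 (P42), -0.22 (P55) and -0.50 (P69). It was 1.34-fold higher at P42 than at P55 and 1.63-fold higher at P42 than at P69. Per3, a strongly cycling output with a minor role in the loop, was at 0.04 (P42), -0.29 (P55) and -0.04 (P69). Its largest difference, between P42 and P55, was 1.26-fold. Neither gene reached 2-fold in any comparison.

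The cryptochromes are the main repressors of the activator pair. Cry1 was not well above background at P42 (level -6.47) and P55 (-5.39) and was measured at P69 (-3.74), at 2.41 times the lowest measured signal. It was at least 1.62-fold higher at P69 than at P42 and at least 1.23-fold higher than at P55. Cry2 was at 1.13 (P42), 1.29 (P55) and 0.98 (P69), with differences of 0.16, -0.15 and -0.31 in the 3 comparisons. The former 2 were within the SD of a difference over all probes (0.19) but above that of bright probes (0.12 and 0.13).

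Nr1d1, the nuclear receptor that represses Arntl, was at 2.02 (P42), 1.86 (P55) and 1.32 (P69). P69 was the low array, 1.62-fold below P42 and 1.45-fold below P55. P42 and P55 differed by 0.16, within the SD of a difference over all probes (0.19) but above that of bright probes (0.12). Dbp, the D-box activator, was at 3.37 (P42), 3.71 (P55) and 3.21 (P69) by its brighter probe and at 3.01, 2.71 and 2.53 by its other probe. The probes disagreed on the direction between P42 and P55, with 0.34 by the brighter and -0.30 by the other. Both gave P69 as the lowest array, 1.12-fold and 1.39-fold below P42.

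**Figure D2:**
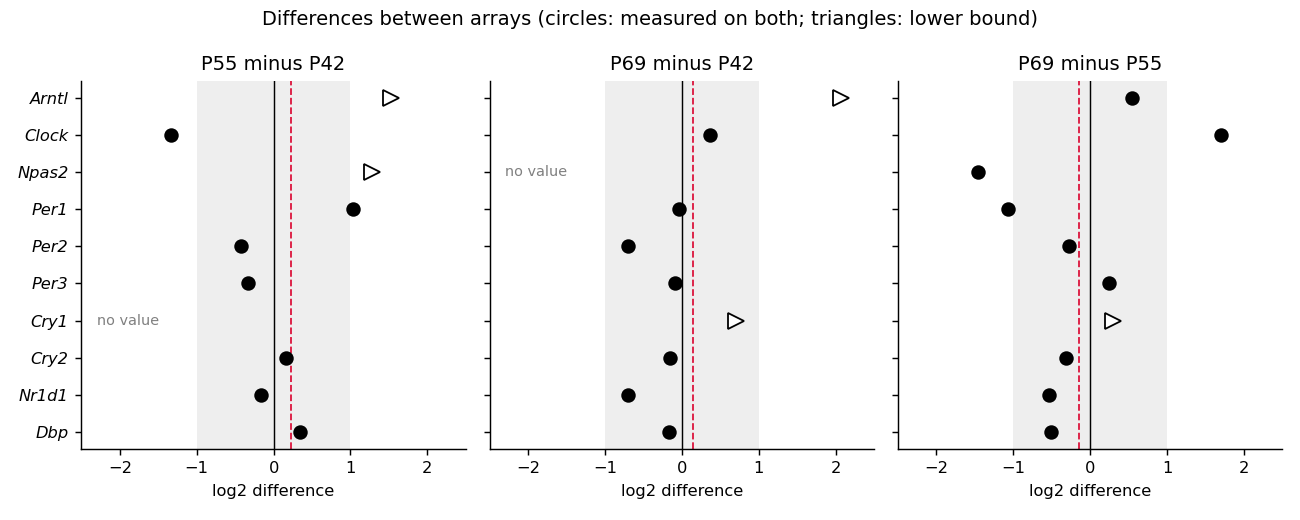
Log2 difference of each clock gene in the 3 comparisons between arrays (horizontal axis). Circles were measured on both arrays, triangles are lower bounds, the grey band is less than 2-fold, and the dashed line is the median of all genes with a value. Arntl lies outside the band in both comparisons with P42, Clock, Npas2 and Per1 in both with P55, and Per2, Per3, Cry2, Nr1d1 and Dbp lie inside it in all 3 comparisons.

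At 2-fold, 3 of the 9 clock genes with a value were higher at P55 than at P42 (Arntl, Npas2 and Per1), where 29.1% of all 15843 genes with a value were. Clock alone was lower, against 16.9% of all genes. From P42 to P69, 1 of 9 was higher (Arntl), against 22.2% of 16164 genes, and 0 were lower, against 20.7%. From P55 to P69, 1 of 10 was higher (Clock), against 7.85% of 14846 genes, and 2 were lower (Npas2 and Per1), against 11.3%. No clock gene reached the 10-fold threshold of the study's methods, which 1.44%, 1.13% and 0.182% of genes passed in the 3 comparisons. With 9 or 10 genes, 1 or 2 genes more or less move a share by about as much as these shares depart from those of all genes, so nothing particular to the clock genes is read from them.

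The spread over the 3 arrays, as the highest minus the lowest level, describes the same genes without choosing a pair. Over the 13078 genes measured on all 3 arrays its median was 1.15, and 40.5% of genes spanned less than 2-fold. Of the 7 clock genes measured on all arrays, 5 spanned less than 2-fold, and their median was 0.70. Per3, Dbp and Nr1d1, which cycle strongly over the day in other tissues, each spanned less than the median gene. Per3 spanned 0.33, and 5.57% of genes had a smaller span. Dbp spanned 0.51 (12.7% smaller), Nr1d1 0.70 (22.3%) and Per2 0.70 (22.7%). Cry2 had the smallest span of the 7, 0.31 (4.78%), whereas Per1 spanned 1.07 (44.8%) and Clock 1.71 (78.2%). Arntl, Npas2 and Cry1 are left out of this count because they were not measured on every array. Clock outputs outside the members, described further on, were mixed. Usp2 (2.66), Ciart (2.33) and Hlf (1.35) spanned more than the median gene, and Tef (0.64), Nr1d2 (0.62), Bhlhe41 (0.68) and Wee1 (0.98) less. The wide spans rest on low values near the limit of measurement. Usp2 at P42, Ciart at P42 and Hlf at P55 were only 1.75, 2.21 and 2.19 times the lowest measured signal. Among the 7026 genes whose mean level was at or above the 75th percentile, the median span was 1.10.

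**Figure D3:**
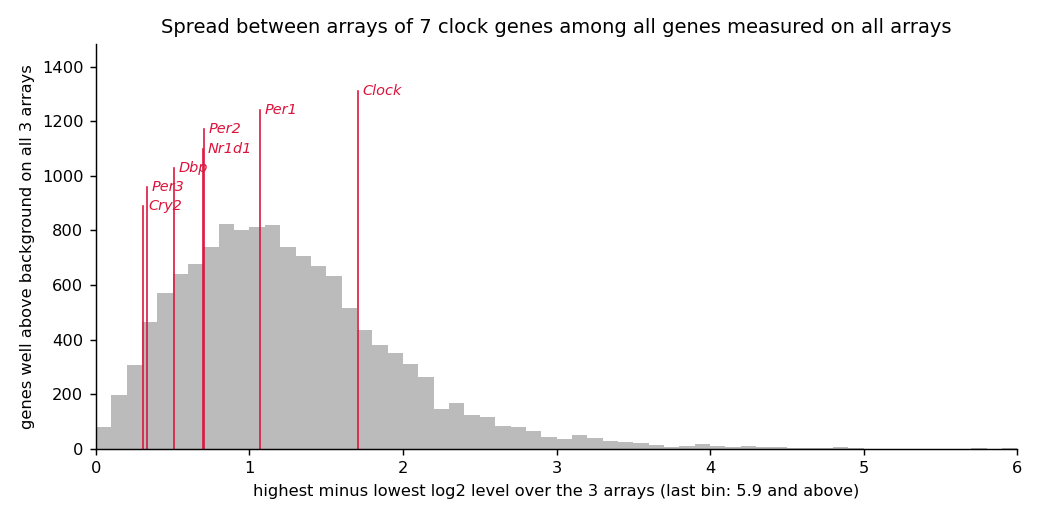
Distribution of the spread over the 3 arrays (highest minus lowest log2 level, horizontal axis) for the 13078 genes measured on all of them, with the count of genes on the vertical axis. Vertical lines mark the 7 clock genes measured on all arrays. Cry2 and Per3 lie in the left flank, Dbp, Nr1d1 and Per2 lie to the left of the peak, and Clock lies to its right.

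The activators and the E-box-driven genes were also set side by side as arms. From P42 to P69 the 5 E-box-driven genes (Per1, Per2, Per3, Nr1d1 and Dbp) were all on the negative side, from -0.70 to -0.04, with a median of -0.17. Of these, Per1 (-0.04), Per3 (-0.09) and Dbp (-0.17) were within the SD of a difference over all probes (0.19), and Per1 and Per3 also within that of bright probes (0.13). Other E-box-driven genes were mostly on the positive side: 6 of the 7 further outputs outside the members (median 0.39), and Cry1, by at least 0.70. Of these outputs, Nr1d2 (0.03) and Ciart (0.19) were within the SD of a difference for dim probes (0.27). Usp2 (2.66) was set against a P42 signal only 1.75 times the lowest measured one. Cry2 was on the negative side, at -0.15. The activators with a value were on the positive side, Arntl by at least 2.07 and Clock by 0.37. From P42 to P55, 3 of the 5 E-box-driven genes were negative (median -0.16, with Per1 at 1.03), and the activators split, with Arntl and Npas2 positive and Clock negative. From P55 to P69, 4 of the 5 E-box-driven genes were negative (median -0.51, with Per3 at 0.25), Arntl and Clock were positive and Npas2 negative.

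These signs depend on the scaling, since the median of all genes was itself not 0 but 0.22, 0.15 and -0.15 in the 3 comparisons. The median of the E-box arm turned positive in both comparisons with P42 with median scaling (0.39 and 0.35) and without scaling (0.10 and 1.00). It also turned positive from P42 to P55 under the normexp correction (0.02), and from P55 to P69 without scaling (0.39). Relative to the median of all genes, it was negative in each of the 6 scalings and corrections, from -0.63 to -0.10 (P55 against P42), -0.59 to -0.18 (P69 against P42) and -0.37 to -0.25 (P69 against P55). Scalings that shift all genes of an array alike nearly cancel in this measure, so their agreement carries little weight. Only quantile normalization (-0.63, -0.59 and -0.29) and the normexp correction (-0.10, -0.18 and -0.25) could change it. From P42 to P69, 5 of 5 genes of the arm lay below the median of all genes, but 3 of 5 under the normexp background correction. The median size of the E-box arm's differences was 0.34, 0.17 and 0.51, against 0.89, 0.79 and 0.51 over all genes measured on both arrays. How far a difference in time of harvest entered these values was not tested.

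Beyond the core, the 18 clock-associated genes were all measured on at least 2 arrays. At 2-fold, 5 were higher and 1 lower at P55 than at P42, 3 higher and 1 lower at P69 than at P42, and 2 higher and 1 lower at P69 than at P55, with medians of 0.29, 0.60 and 0.26. Among all genes, the shares higher and lower were 29.1% and 16.9%, 22.2% and 20.7%, and 7.85% and 11.3% in the same order, and nothing particular to the list is read from its counts. Among the output genes that carry E-boxes, Ciart, a repressor of the activator pair, stood out at P55. Its level was -3.30 (P42), -0.97 (P55) and -3.11 (P69), so that P55 lay 2.33 above P42 and 2.14 above P69. The Ciart signals at P42 and P69 were only 2.21 and 3.75 times the lowest measured signal of the array. P55 was the highest array for Per1 too. Usp2, a deubiquitinase under clock control, was at -3.63, -2.31 and -0.97, and each array differed from each other by more than 2-fold. Hlf, a relative of Dbp, was 1.35 higher at P69 (-1.57) than at P55 (-2.91), with P42 at -2.38. Tef, the other relative, was at 3.57, 4.20 and 3.96, and Nr1d2, the paralog of Nr1d1, at 0.20, -0.39 and 0.22. The cell-cycle kinase gene Wee1 was at -1.99, -1.46 and -1.01. The 7 output genes outside the members had medians of 0.54, 0.39 and 0.44.

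The ROR receptors activate Arntl through the element that REV-ERBα represses. Rora was at -0.81 (P42), -0.31 (P55) and 0.02 (P69). Rorb was 2.05 lower at P55 and 1.85 lower at P69 than at P42, where it stood at -0.50. Among repressors, Bhlhe40 hardly moved, at 0.74, 0.95 and 0.74, and Nfil3, which opposes Dbp at D-boxes, was at 4.40, 4.31 and 3.72. Bhlhe41 was at -1.77, -1.47 and -2.15 by its brighter probe, whereas its other probe was 1.45 lower at P69 than at P42 and was not well above background at P55.

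Of the genes that act on the stability of PER and CRY proteins, Csnk1d, which encodes a PER kinase, was 1.20 higher at P55 (4.71) than at P42 (3.51) by its brighter probe, but 0.36 lower by its other probe. Csnk1e was at 1.41, 1.18 and 1.27 by its brighter probe, and at 0.41, 0.54 and 1.29 by its other probe, which was 0.88 higher at P69 than at P42. Fbxl21, which encodes an F-box protein that acts on cryptochromes, was not well above background at P42 and was at -2.15 at P55 and -2.85 at P69, at least 2.29 and 1.59 above P42, by its brighter probe. None of the 3 arrays measured its other probe. Btrc, whose product marks PER proteins for degradation, was at -1.19, -1.22 and -0.89, and its other probe was 1.19 and 1.44 higher at P55 and P69 than at P42. Timeless, which acts mainly in DNA replication, was higher than P42 by both probes, by 1.25 and 1.40 at P55 and by 1.85 and 1.44 at P69. Cipc, an inhibitor of CLOCK, was at -0.68, -0.65 and 0.22, and Noct, a rhythmic phosphatase gene, at -1.15, -0.87 and -0.31.

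**Figure D4:**
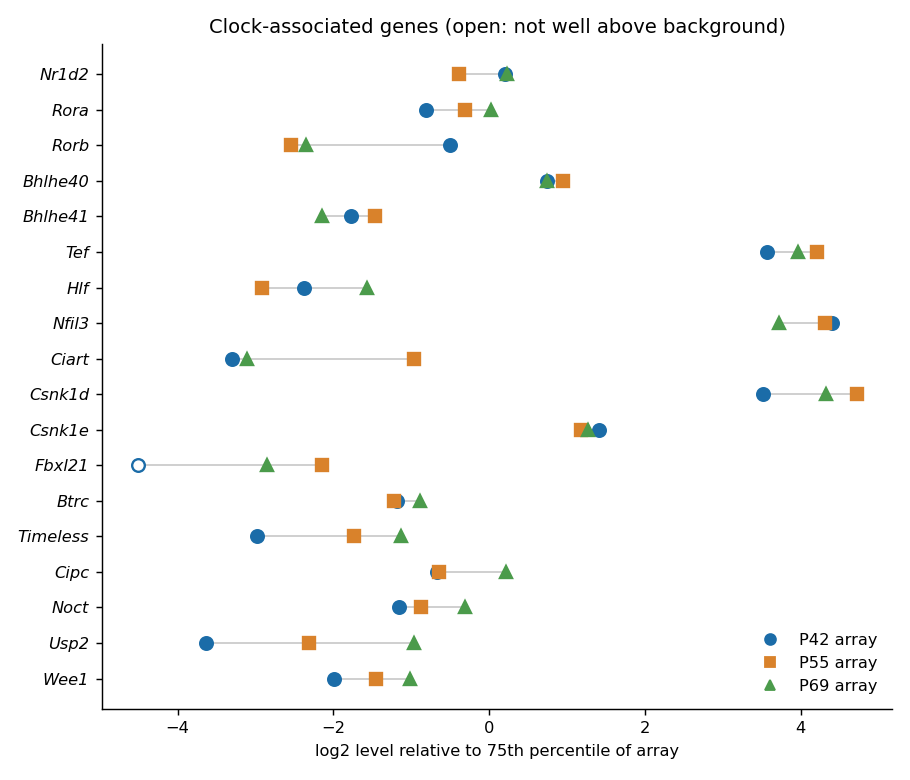
Level of the 18 clock-associated genes on the 3 arrays, as log2 of the signal relative to the 75th percentile of the array (horizontal axis), by the brightest probe of each gene. Open symbols were not well above background, and grey lines join the lowest and highest array. Ciart, Usp2, Rorb, Fbxl21 and Timeless have the widest spans, and Bhlhe40 and Csnk1e the narrowest by the probe drawn.

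Genes that respond to glucocorticoids or to cell isolation were read beside Per1, which belongs to both kinds of response. The glucocorticoid target Tsc22d3 was at 4.43 (P42), 6.17 (P55) and 5.05 (P69), 1.75 higher at P55 than at P42 and 1.13 lower at P69 than at P55. Fkbp5, another such target, was at 0.51, 1.83 and 1.46, and was 1.32 higher at P55 than at P42. Both had P55 as their highest array, as Per1 did. The rest of the glucocorticoid-responsive list was split, with some genes highest at P42, some at P55 and some at P69. Of the glucocorticoid-responsive list, 4 of 11 genes were higher and 1 lower at P55 than at P42 (median 0.41), 2 higher and 2 lower of 12 at P69 than at P42 (0.33), and 1 higher and 4 lower at P69 than at P55 (-0.48). At P55 against P42, 29.1% of all genes were higher and 16.9% lower, so the count of this list in that comparison is close to that of genes at large. The shares of all genes were 22.2% and 20.7% at P69 against P42, and 7.85% and 11.3% at P69 against P55. The 4 lower of 12 at P69 against P55 lie above the last share, but with 12 genes nothing is read from this.

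Of 19 immediate early and isolation stress genes, 5 were higher and 3 lower at P55 than at P42 (median 0.28), 5 higher and 4 lower at P69 than at P42 (-0.02), and 0 higher and 1 lower at P69 than at P55 (-0.25), beside the same shares of all genes in the comparisons with P42 (29.1% and 16.9% for P55, 22.2% and 20.7% for P69) and 7.85% and 11.3% between P55 and P69. Fos was at 4.75, 5.34 and 4.56, and Egr1 at 3.78, 4.49 and 3.99, with P55 highest for both. Jun was highest at P42, at 5.40, against 4.27 and 3.78. Housekeeping genes were 1.04 higher at P55 than at P42 by the median of 12, which is as large as the difference of Per1 (1.03), and 0.10 higher at P69. The part of isolation, hormones and other cell types in the clock gene values was not tested.

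**Figure D5:**
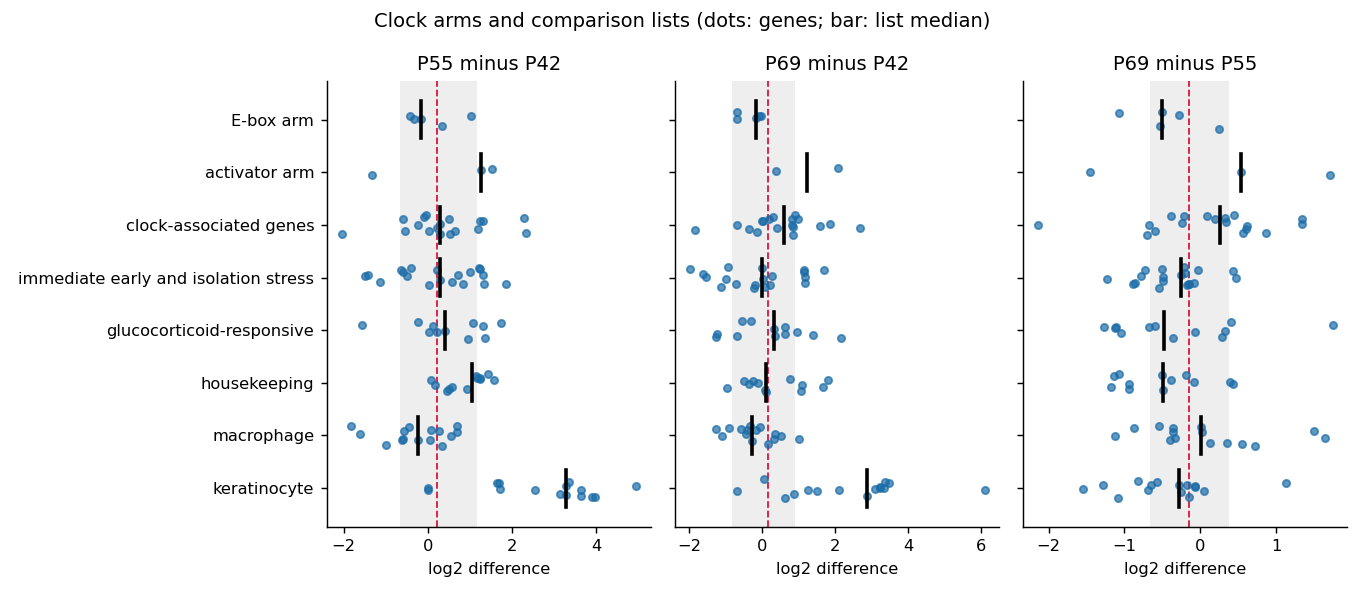
Log2 differences between arrays (horizontal axis) for the genes of the clock arms and of 6 comparison lists, with bounds drawn at their value. Dots are genes, black bars list medians, the dashed line the median of all genes and the grey band their interquartile range. The E-box arm lies slightly left of the dashed line in all 3 comparisons, and keratinocyte genes lie far to the right in both comparisons with P42.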

How the data were processed

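The authors hybridized amplified RNA to Agilent one-color arrays, scanned them and quantified the spots with Feature Extraction 10.7.3.1. They deposited the processed signal of each spot as an intensity on a linear scale, background-corrected and not normalized between arrays. The deposited series table holds log2 values, median-centered and limited to probes that vary; it was used only as an alternative. Control and outlier spots were left out, spots of a probe were averaged, and the 75th percentile of the array was subtracted after taking log2 (Python 3.11.15, pandas 2.3.3). Probes counted as measured had a share of 0.5 or more spots called above background. RefSeq names (GRCm38.p6) were matched to 26056 probes, giving 19752 genes, and the brightest probe on average stood for a gene.

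The text names the 10 clock genes with all probes, clock-associated genes at least 2-fold different in a comparison or measured on all 3 arrays, and the fixed genes Adgre1, Itgam, Csf1r, Krt5, Krt14, Fos, Jun, Egr1, Fkbp5 and Tsc22d3. Members and lists were chosen with earlier results of these data known. Some clock-associated genes are not reported here and were left out of that list's counts and medians. With 1 array per age no test was run; a difference is counted at 2-fold. Alternatives changed scaling, background correction (normexp, limma 3.58.1), filter, probe choice, threshold, source table and the assignment of the later arrays. The calculations were tested on simulated data. The number of arrays limits the precision.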

Additional observations from a re-analysis of the deposited data

How the results depend on the processing

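The counts of clock genes past 2-fold were small and moved with most choices. At P55 against P42, 3 were higher and 1 lower. The higher count was 1 with the 75th percentile of probes measured on all arrays, with normexp, with genes measured on both arrays only and with the later arrays exchanged. The lower count was 0 with median scaling, quantile normalization, normexp, the series table and exchanged arrays. At P69 against P42, 1 was higher and 0 lower. The higher count was 2 with median scaling, quantile normalization or a 1.5-fold threshold, 6 without scaling, 0 with normexp or genes measured on both arrays, 3 without a filter, 4 in the series table and 3 with exchanged arrays; the lower count was 2 at 1.5-fold, and 1 in the series table and with exchanged arrays. At P69 against P55, 1 was higher and 2 lower. The higher count was 4 without scaling, 0 with normexp, and 2 without a filter, in the series table and with exchanged arrays; the lower count was 1 with the percentile of measured probes, quantile normalization or exchanged arrays and 0 without scaling. At 10-fold all counts were 0.

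The E-box arm median moved, for P55 against P42, to -0.54 with the percentile of measured probes, 0.39 with median scaling and 0.10 without scaling. For P69 against P42 it moved to -0.37, 0.35 and 1.00 in the same order. For P69 against P55 it was -0.29 with quantile normalization, 0.39 without scaling and 0.51 with exchanged arrays. In the series table and with exchanged arrays, Clock was 0.37 in both at P55 against P42 and -1.70 and -1.71 at P69 against P55. Per1 was -0.035 in both at P55 against P42 and 1.07 in both at P69 against P55, and Npas2 was 1.46 in both at P69 against P55. These follow from the exchange of labels. The cause of the other shifts was not tested.

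No paired analysis was possible because each age had 1 array. The alternative that names probes by a gene name column was not run. The series table holds 5 of the 10 clock genes and gave no E-box arm median. Arntl, Clock, Npas2 and Cry1 lay within 10-fold of the lowest measured signal, and their values are the least certain among the 10. Some clock-associated genes also came within 10-fold of it on an array, among them Usp2, Ciart and Hlf.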

Other observations

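In both comparisons with P42, Adgre1 and Itgam, which encode markers of the sort, and Csf1r differed less than the median keratinocyte gene (3.29 and 2.88). From P55 to P69 they differed more by their brightest probes. Adgre1 was at -0.36, Itgam at -0.87 and Csf1r at -0.54, against a keratinocyte median of -0.28. The level of Adgre1, which encodes F4/80, was 4.83 at P42, 5.51 at P55 and 5.15 at P69, and its other probe also had P55 highest. Csf1r, the receptor for the growth factor of macrophages, was at 6.16, 6.87 and 6.32 by its brightest probe. Its other probes also had P55 highest, at 5.81, 6.54 and 5.68 and at 5.74, 7.04 and 6.19. Itgam, which encodes CD11b, was at 8.95, 8.73 and 7.85 by its brightest probe, and its other probes put the lowest array at P55. Krt14 was at 1.22, 4.35 and 4.09. Of the remaining cell type lists, endothelial genes had medians of -1.02 (P55 against P42), -0.19 (P69 against P42) and 0.77 (P69 against P55), fibroblast genes -0.85, -0.21 and 0.31, T cell genes 1.07, 1.02 and -0.45, and melanocyte genes 1.58, 1.88 and -0.69.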
